A study of Danio rerio with 24 samples.

Results

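Tryptophan metabolism was followed through 10 genes, *tdo2a*, *tdo2b*, *ido1*, *afmid*, *kmo*, *haao*, *acmsd*, *aadat*, *tph1a* and *tph2*. The data are bulk RNA-Seq of whole zebrafish larvae that carry or lack a constitutively active Fyn kinase in their neurons. The genes were taken by gene symbol, and 10 of 10 were found among the 26878 genes of the deposited count tables. The libraries came from 3 genotypes at 3 and 5 days post fertilization (dpf), with 4 libraries in each of the 6 groups and 24 in all. Wild-type (WT) larvae carried no transgene. The driver control, *elavl3:Gal4* (huC:gal4:gcry:RFP in the labels, where huC is the older name of *elavl3*), expressed the yeast activator Gal4 from a pan-neuronal promoter together with a red lens marker. The model, *elavl3:Gal4; UAS:fynY531F* (huc:gal4:gcry:RFP joined with UAS:fynY531F:gcry:GFP), is called *fynY531F* larvae here. It carried the same driver and a Gal4-responsive transgene for active Fyn with a green lens marker. The transgenic line descended from a single adult, and the driver restricts the transgene to neurons while the RNA came from all tissues of pooled larvae. The labels name no drug for any group, and all were raised in the same embryo medium, temperature and light cycle. The design compares the model with each control at each age, and the model between ages, to ask how active Fyn alters gene expression in a neurodegeneration model.

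Most tryptophan that is not built into protein is broken down along the kynurenine pathway. Tryptophan dioxygenase (TDO, encoded by *tdo2a* and *tdo2b*) and indoleamine dioxygenase (IDO, *ido1*) open the indole ring to N-formylkynurenine, and the formamidase Afmid releases kynurenine. Kynurenine is then hydroxylated by kynurenine monooxygenase (*kmo*), cleaved by kynureninase (*kynu*) and oxidized by 3-hydroxyanthranilate dioxygenase (*haao*). The product turns spontaneously into quinolinic acid, the precursor of NAD, unless the decarboxylase Acmsd diverts it towards the glutarate branch. A side arm catalysed by aminotransferases including Aadat gives kynurenic acid, and tryptophan hydroxylases (*tph1a* and *tph2*) start the separate route to serotonin and melatonin. In mammals TDO is best known from the liver and IDO1 from immune and epithelial cells, and quinolinic acid and kynurenic acid act in opposite directions on NMDA-type glutamate receptors.

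Library totals ran from 11386498 to 30549128 counts. The zebrafish gene *fyna*, the source of the transgene's coding sequence, checked the labels. It stood at 823 to 972 CPM (counts scaled to a common library size) in *fynY531F* larvae at 3 dpf and 141 to 270 CPM at 5 dpf, and at 69.1 to 92.6 CPM in the 16 control libraries. Replicate 3 of *elavl3:Gal4* larvae at 5 dpf stood apart, with a median correlation of 0.872 with the rest of its group when every other library reached at least 0.983. Results that rest on it are given with and without it. All 6 intestine markers were called higher at 5 than at 3 dpf in each genotype (15.4% to 29.3% of all genes tested). In *fynY531F* larvae 5 of the 6 were called lower than in either control at both ages (2.60% to 14.8% of all genes tested). The lowest share of each range rests on the library that stands apart. The summed intestine markers reached 77 to 97.3 CPM in *fynY531F* larvae at 3 dpf, 144 to 180 in *elavl3:Gal4* and 163 to 183 in WT. At 5 dpf they reached 359 to 528, 1070 to 1394 and 938 to 1145 CPM, and no intestine marker was at 0 throughout a group. Without the library that stands apart the *elavl3:Gal4* range at 5 dpf was 1070 to 1270 CPM. In whole larvae, fewer cells of a type and less RNA per cell cannot be told apart.

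Per kilobase of gene length, *haao* was the most abundant of the 10 genes in each of the 6 groups, at 7.89 to 16.7 CPM per kilobase. At 3 dpf *kmo* came next in all 3 genotypes, *tdo2b* had rank 9 and *tph1a* rank 10, an order that turned when single WT or *elavl3:Gal4* libraries were left out. At 5 dpf *tdo2b* had moved to rank 4 in WT and rank 2 in both transgenic genotypes, and *tph2* had rank 10. Rank 2 rested on 1 library in each: without replicate 3 of *elavl3:Gal4* larvae *tdo2b* stood at 9.27 CPM per kilobase and *kmo* at 11.8, and without replicate 1 of *fynY531F* larvae at 6.93 and 7.42, which is rank 3 in both. The 2 rarest transcripts were measured from few reads: *tdo2b* had 5 to 23 counts per library at 3 dpf and *tph1a* 1 to 21, so their 3 dpf levels carry wide counting error.

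**Figure D1:**
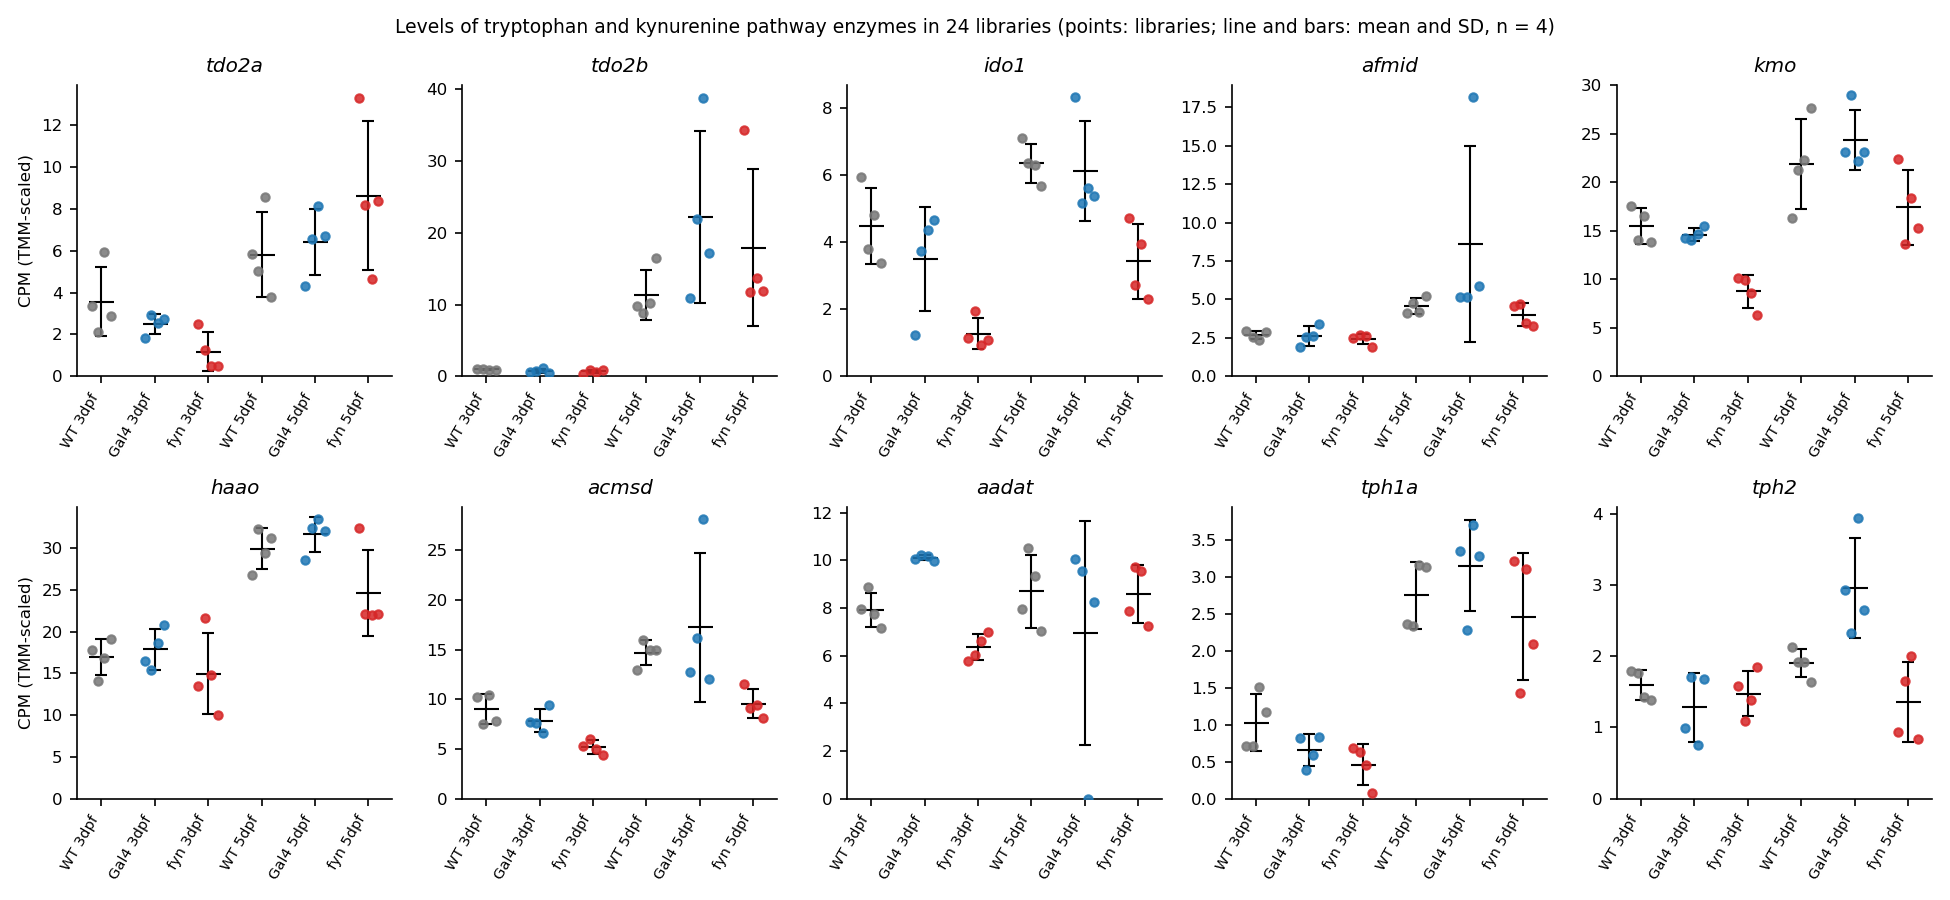
Level of each of the 10 genes in each of 24 libraries, in CPM after TMM scaling on linear axes that start at 0, by genotype and age (points are libraries, lines and bars the mean and SD of 4). *tdo2b* is near 1 CPM in all 12 libraries at 3 dpf and at 8.81 to 38.7 CPM in all 12 at 5 dpf, and the libraries of *fynY531F* larvae at 3 dpf are the lowest group for *ido1*, *kmo* and *acmsd*.

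Most of the 10 genes rose with age in each genotype. In *fynY531F* larvae 9 of the 10 genes were called higher at 5 than at 3 dpf by edgeR (quasi-likelihood test, p adjusted over all genes by Benjamini-Hochberg and below 0.05). Of the 19691 genes tested, 27.0% were called higher and 25.3% lower. WT larvae had 7 of 10 called higher (background 29.3% higher and 28.7% lower of 19589) and *elavl3:Gal4* larvae 8 of 10 (background 15.4% higher and 10.4% lower of 19534). None of the 10 was called lower in any genotype. All 5 dpf libraries lay above all 3 dpf libraries for 9 of the 10 genes in *fynY531F* larvae (24.1% of all genes), for 9 in *elavl3:Gal4* larvae (19.1%) and for 5 in WT (26.2%). The median log2 fold change over the 10 genes was 0.94 in *fynY531F*, 0.70 in WT and 1.15 in *elavl3:Gal4* larvae, against medians over all genes of -0.00329 to 0.0157. Without the library that stands apart the *elavl3:Gal4* median lay between the values of *ido1* (0.84) and *tph2* (0.98), a span that holds the *fynY531F* median. The higher *elavl3:Gal4* median thus rests on that library. *tdo2b*, *afmid*, *kmo*, *haao*, *acmsd* and *tph1a* passed the test in each of the 3 genotypes. Under a filter of at least 10 counts in every library, which removes the rarest genes, the *elavl3:Gal4* count was 5 rather than 8, and it ran from 5 to 9 when single libraries were left out. Without the library that stands apart it was 9, beside a background of 29.6% higher and 29.4% lower of 19681 genes. The *elavl3:Gal4* age background of 15.4% and 10.4%, used again below, thus rests on that library.

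**Figure D2:**
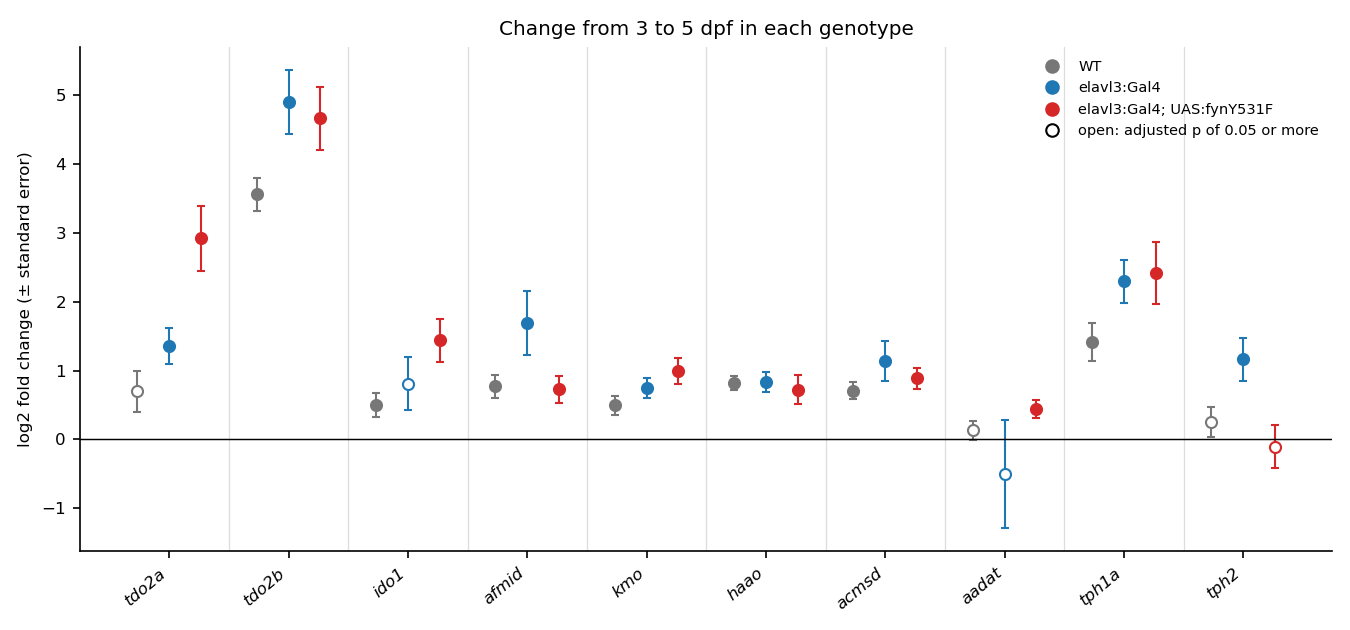
Change from 3 to 5 dpf for each gene in the 3 genotypes, as log2 fold change on the y axis with bars of 1 SE (n = 4 libraries per age). Filled symbols passed an adjusted p of 0.05 and open symbols did not; *tdo2b* lies at 3.56, 4.90 and 4.66, and *aadat* and *tph2* lie nearest to 0 in *fynY531F* larvae.

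Every gene of the 10 that was called between *fynY531F* larvae and a control was lower in *fynY531F* larvae. Against *elavl3:Gal4* larvae at 3 dpf, 4 of the 8 genes with enough reads to test (*ido1*, *kmo*, *acmsd* and *aadat*) were called lower and none higher. Of all 19200 genes tested there, 9.73% were called lower and 8.88% higher. Against WT at 3 dpf, 4 of 9 (*tdo2a*, *ido1*, *kmo* and *acmsd*) were called lower and none higher. The background was 14.8% lower and 12.7% higher of 19332 genes. All *fynY531F* libraries at 3 dpf lay below all *elavl3:Gal4* libraries for 3 of the 10 genes (*kmo*, *acmsd* and *aadat*, 12.9% of all genes) and below all WT libraries for 5 (*ido1*, *kmo*, *acmsd*, *aadat* and *tph1a*, 14.6%). These comparisons share the *fynY531F* libraries and are not independent. At 5 dpf, *ido1* and *acmsd* were called lower than in WT, 2 of 10 genes beside a background of 14.3% lower and 14.5% higher of 19776. These were also the 2 genes of the 10 with all libraries below all WT libraries (14.9% of all genes). Against *elavl3:Gal4* at 5 dpf edgeR called 0 of 10, with 2.60% of 19746 genes called lower and 2.00% higher. In that comparison 5 (*ido1*, *afmid*, *kmo*, *acmsd* and *tph2*) had an unadjusted p below 0.05, and DESeq2 called 1. Without replicate 3 of the *elavl3:Gal4* larvae the same test called 3 of the 10 genes lower, *ido1*, *kmo* and *acmsd*, and 2219 of all 20086 genes tested. The background of 2.60% called lower, used again below, thus rests on that library. The median log2 fold change of the genes tested was -0.61 against *elavl3:Gal4* and -0.45 against WT at 3 dpf, and -0.42 and -0.24 at 5 dpf, against medians over all genes of -0.00717 to 0.00217. Intestine markers were lower in the same libraries, as given above. Of the muscle markers, 3 of 3 tested were called lower than in *elavl3:Gal4* and 1 of 3 lower than in WT at 3 dpf, and 1 of 4 and 3 of 4 at 5 dpf. Their sum was 8958 to 10820 CPM in *fynY531F* larvae at 3 dpf, 13793 to 15792 in *elavl3:Gal4* and 10476 to 12148 in WT, and at 5 dpf 5838 to 10172, 12417 to 29056 and 11188 to 13043 CPM. Without the library that stands apart the *elavl3:Gal4* range at 5 dpf was 12417 to 14183 CPM. Of the neuron markers, 3 of 6 were called higher in *fynY531F* larvae than in each control at 3 dpf and 1 of 6 lower than in WT, with sums of 2056 to 2420 CPM against 1454 to 1758 in *elavl3:Gal4* and 1759 to 1867 in WT. The controls also differed at 3 dpf. In *elavl3:Gal4* larvae 3 of 6 neuron markers were called lower and 3 of 3 muscle markers higher than in WT (background 4.79% in either direction). Of 6 macrophage markers, 3 were called higher than in WT at 3 dpf and 4 at 5 dpf, and 0 against *elavl3:Gal4*. No marker of these tissues was at 0 throughout a group, and their part in the differences above was not tested.

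None of the 10 genes was called between the controls. edgeR called 0 of 10 between *elavl3:Gal4* and WT larvae at 3 dpf (background 4.79% of 19279 genes called in either direction) and 0 of 10 at 5 dpf (background 0.0508% of 19671), and DESeq2 also called 0 at both ages. The 3 dpf background rested on single libraries, with 923 genes called in all, 55 without WT replicate 3, 63 without *elavl3:Gal4* replicate 4, 164 to 336 without replicate 1 or 2 of either group, 1521 without *elavl3:Gal4* replicate 3 and 0 with all 6 groups in one fit. At an unadjusted p below 0.05 there was 1 gene at 3 dpf, *aadat*, whose *elavl3:Gal4* libraries all lay above the WT libraries (the 1 such gene of 10, beside 7.34% of all genes; log2 fold change 0.33 ± 0.10 SE, adjusted p = 0.0899). At 5 dpf there were 2, *tdo2b* (0.95, adjusted p = 0.84) and *tph2* (0.61, adjusted p = 0.84).

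**Figure D3:**
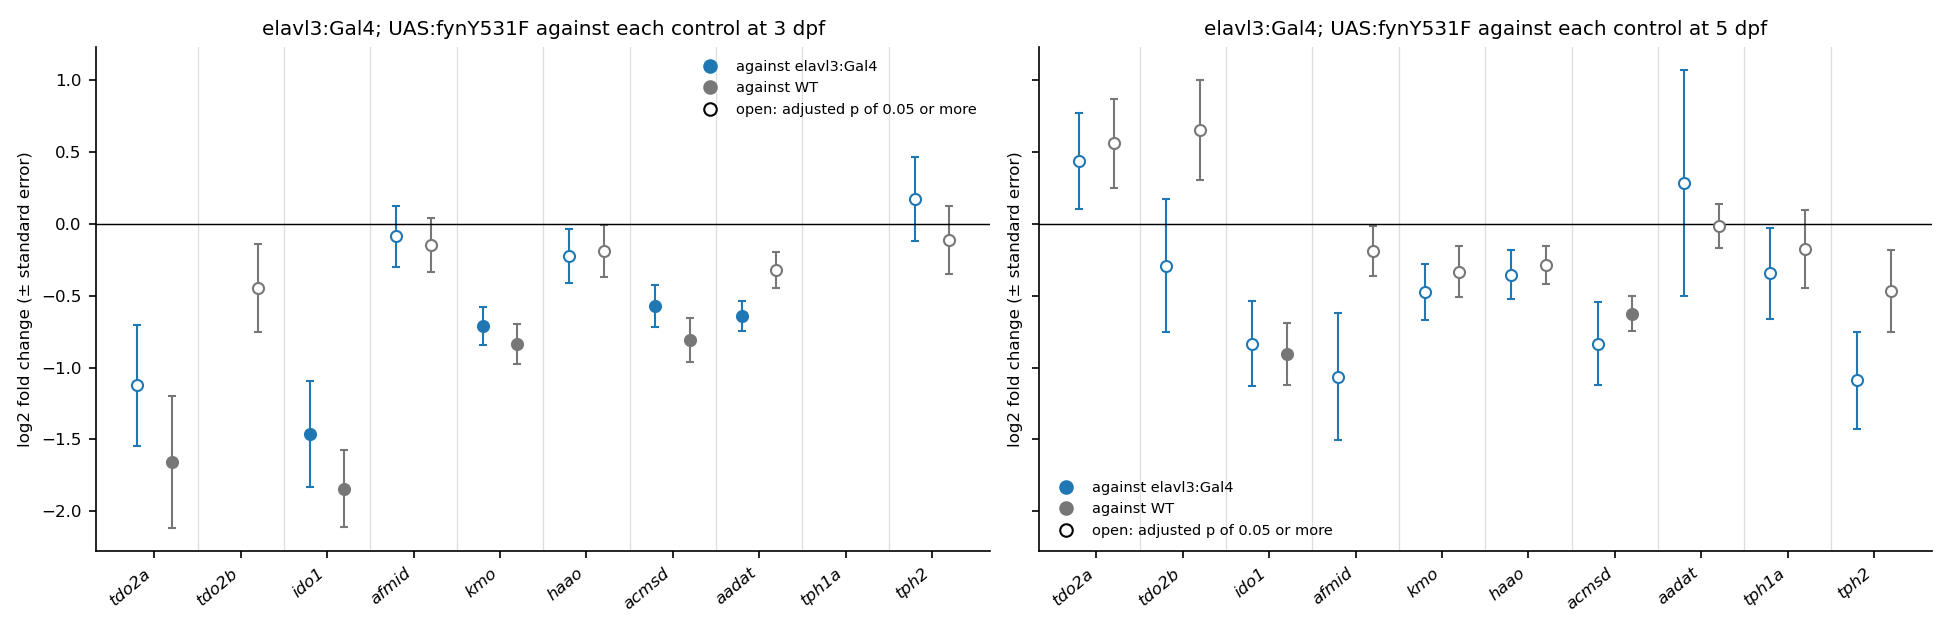
*fynY531F* larvae against each control at 3 dpf (left) and 5 dpf (right), as log2 fold change on the y axis with bars of 1 SE (n = 4 libraries per group). Filled symbols passed an adjusted p of 0.05. At 3 dpf *ido1*, *kmo* and *acmsd* are filled below 0 against both controls, and at 5 dpf the filled symbols are *ido1* and *acmsd* against WT; *tph1a* at 3 dpf and *tdo2b* against *elavl3:Gal4* at 3 dpf had too few reads to test.

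Of the entry enzymes, *tdo2b* (ENSDARG00000023176, GRCz11 chromosome 11, 34084532 to 34097437, minus strand) went from about 1 CPM at 3 dpf to 8.81 CPM or more at 5 dpf. In WT larvae it stood at 1.07, 0.988, 0.860 and 0.879 CPM at 3 dpf and reached 9.86, 8.81, 10.1 and 16.5 CPM by 5 dpf, an 11.8-fold rise (log2 fold change 3.56 ± 0.24 SE, adjusted p = 4.13e-08, edgeR). In *elavl3:Gal4* larvae the 4 libraries held 0.659, 0.743, 1.09 and 0.458 CPM at 3 dpf and 10.9, 22.0, 38.7 and 17.2 CPM at 5 dpf (4.90 ± 0.46, adjusted p = 0.000224). The highest of these is the library that stands apart, without which the change was 4.52. In *fynY531F* larvae the 3 dpf values were 0.376, 0.859, 0.665 and 0.890 CPM, and the later ones 34.3, 11.7, 13.7 and 11.9 CPM (4.66 ± 0.46, adjusted p = 2.13e-05). The ages did not overlap in any genotype, while the genotypes overlapped at each age. No genotype comparison called the gene (*fynY531F* against WT -0.45 at 3 dpf and 0.65 at 5 dpf, adjusted p = 0.307 and 0.19). In the interactions, the age change was not called different between *fynY531F* larvae and either control.

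*tdo2a* (ENSDARG00000071429, chromosome 14, 36738063 to 36750593, plus strand), the other gene for tryptophan dioxygenase, was the only one of the 10 genes whose change with age was called different between *fynY531F* larvae and a control, WT. Its *fynY531F* libraries held 2.48, 1.25, 0.511 and 0.479 CPM at 3 dpf and 13.3, 8.20, 4.63 and 8.37 CPM at 5 dpf, a 7.55-fold rise (log2 fold change 2.92 ± 0.47 SE, adjusted p = 0.000493, and 3.57 without replicate 1 at 3 dpf). WT libraries held 3.36, 2.12, 5.95 and 2.86 CPM and then 5.84, 5.02, 8.57 and 3.81 CPM, and these ages overlapped (0.70 ± 0.30, adjusted p = 0.0596). That change was called when WT replicate 3 of the earlier age (1.06, adjusted p = 0.00584) or WT replicate 4 of the later age (0.85, adjusted p = 0.0283) was left out, and also with the replicate block (0.73, adjusted p = 0.00565) and with no filter (0.69, adjusted p = 0.0491), within 0.00565 to 0.216. The *fynY531F* age change exceeded that of WT by 2.21 ± 0.61 on the log2 scale (adjusted p = 0.0258), the 1 of 10 genes called in this interaction beside a background of 6.23% of 20340 genes called higher. In either direction 2380 of those 20340 genes were called, so 1 of 10 lay near the share over all genes. Of 10 liver markers, 4 were called higher and 0 lower in the same interaction. In *fynY531F* larvae at 5 dpf, 5 liver markers were called higher than in WT and 1 lower (background 14.5% and 14.3%). At 3 dpf 1 was called higher and 3 lower (12.7% and 14.8%). Their part in the *tdo2a* difference was not tested.

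In *elavl3:Gal4* larvae *tdo2a* was at 1.81, 2.91, 2.52 and 2.75 CPM at 3 dpf and 4.30, 6.58, 8.13 and 6.71 CPM at 5 dpf (1.35 ± 0.26, adjusted p = 0.00577), and the *fynY531F* age change exceeded this by 1.55 ± 0.60 without passing the test (adjusted p = 0.178). edgeR called 0 of the 10 genes in that interaction, beside 4.15% of 20358 genes in either direction. In it *tdo2a* and *tph2*, 2 of the 10, had an unadjusted p below 0.05, and DESeq2 called 0. The lower 3 dpf level in *fynY531F* larvae passed the test against WT (-1.65 ± 0.46, adjusted p = 0.0182), though the highest *fynY531F* library, 2.48 CPM, lay above the lowest WT library, 2.12 CPM. The difference from *elavl3:Gal4* did not pass (-1.12 ± 0.42, adjusted p = 0.0851). Single libraries decided some of these calls. The difference from WT was -1.28 without WT replicate 3 and -1.36 without *fynY531F* replicate 3, with adjusted p of 0.0697 and 0.0587 (0.00298 to 0.0697 over the alternatives). The interaction with WT was 1.86, 1.92 and 1.97 without WT replicate 3, *fynY531F* replicate 3 or *fynY531F* replicate 4 at 3 dpf (adjusted p up to 0.0637, from 0.00494). Without *fynY531F* replicate 1 the difference from *elavl3:Gal4* was -1.78 (adjusted p = 0.00642) and the interaction 2.21 (adjusted p = 0.0417). At 5 dpf *tdo2a* was not called against either control (0.44, adjusted p = 0.519, and 0.56, adjusted p = 0.204).

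*ido1* (ENSDARG00000033594, chromosome 8, 50463227 to 50482781, minus strand), whose mammalian product is induced by interferon, was lower in *fynY531F* larvae at both ages. At 3 dpf its *fynY531F* libraries held 1.13, 1.95, 0.920 and 1.1 CPM, its WT libraries 5.94, 3.81, 4.80 and 3.37 CPM and its *elavl3:Gal4* libraries 1.24, 3.75, 4.37 and 4.65 CPM. Every *fynY531F* library lay below every WT library (log2 fold change -1.84 ± 0.27 SE, adjusted p = 0.000328). Replicate 1 of the *elavl3:Gal4* larvae, at 1.24 CPM, fell inside the *fynY531F* range, and that comparison still passed (-1.46 ± 0.37, adjusted p = 0.0166). It did not pass without *fynY531F* replicate 3 (-1.31, adjusted p = 0.0587, the highest of a range that starts at 0.00103).

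At 5 dpf *ido1* stood at 4.74, 2.73, 3.94 and 2.30 CPM in *fynY531F* larvae, at 7.10, 6.36, 6.31 and 5.68 CPM in WT and at 8.33, 5.16, 5.62 and 5.38 CPM in *elavl3:Gal4* larvae. All 4 *fynY531F* libraries lay below all 8 control libraries, with a call against WT (-0.90 ± 0.22, adjusted p = 0.0103). There was none against *elavl3:Gal4* (-0.83 ± 0.30, adjusted p = 0.159, and -0.88 with adjusted p = 0.0444 without the *elavl3:Gal4* library that stands apart, over a range of 0.0444 to 0.358). The gene rose with age in *fynY531F* larvae (1.44 ± 0.31, adjusted p = 0.00284) and in WT (0.50 ± 0.18, adjusted p = 0.0262). In *elavl3:Gal4* larvae it did not pass (0.81 ± 0.39, adjusted p = 0.162). It did without replicate 3 at 5 dpf (0.84, adjusted p = 0.0437) and with all 6 groups in one fit (0.80, adjusted p = 0.0352), in a range up to 0.344. The WT call was lost without WT replicate 2 or 4 at 3 dpf or replicate 1 at 5 dpf (0.43, 0.39 and 0.44, adjusted p 0.0754, 0.0778 and 0.0696, within 0.00495 to 0.204 over the alternatives). Whether the age change of *ido1* was larger in *fynY531F* larvae than in WT was tested in the interaction (0.93, adjusted p = 0.107). It was not called, except without *fynY531F* replicate 2 at 3 dpf (1.20, adjusted p = 0.0356, range 0.0356 to 0.343). The summed macrophage markers were at 46.4 to 54.7 CPM in *fynY531F* larvae at 5 dpf, at 22.1 to 34.4 in *elavl3:Gal4* and at 33.0 to 39.7 in WT. Without the library that stands apart the *elavl3:Gal4* range was 32.9 to 34.4 CPM. Their part in the *ido1* values was not tested.

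*afmid* (ENSDARG00000099106, chromosome 11, 45139300 to 45153006, minus strand), the formamidase gene, rose with age and was not called between genotypes by the 2-group tests. Its libraries held 2.93, 2.54, 2.36 and 2.86 CPM in WT at 3 dpf and 4.10, 4.78, 4.18 and 5.23 CPM at 5 dpf (log2 fold change 0.77 ± 0.16 SE, adjusted p = 0.00119), and in *fynY531F* larvae 2.48, 2.66, 2.61 and 1.92 CPM and then 4.57, 4.73, 3.45 and 3.28 CPM (0.73 ± 0.20, adjusted p = 0.00946). *elavl3:Gal4* larvae stood at 1.89, 2.55, 2.61 and 3.43 CPM and then 5.19, 5.16, 18.2 and 5.85 CPM, where 18.2 CPM is the library that stands apart. All ages were separate, and in 3 dpf larvae the genotypes overlapped.

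In *elavl3:Gal4* larvae the age change of *afmid* was 1.69 ± 0.46 (adjusted p = 0.0272), and 1.05 without that library. It lost its call without any 1 of the 4 libraries at 3 dpf (1.56, 1.67, 1.69 and 1.84, adjusted p 0.0517 to 0.0823, within 0.000151 to 0.0823). *fynY531F* against *elavl3:Gal4* larvae at 5 dpf gave -1.06 ± 0.44 (adjusted p = 0.224), or -0.42 (adjusted p = 0.127) without the library that stands apart. That difference was called with all 6 groups in one fit (-1.04, adjusted p = 0.0147, range 0.0147 to 0.431). The same fit did not call the age change of *afmid* in WT or *fynY531F* larvae (0.77 and 0.73, adjusted p = 0.0602 and 0.0756, ranges from 0.000888 and 0.00724). *afmid* overlaps *cant1b* on the same strand, and *cant1b* stood at 78.8 CPM in the library with 18.2 CPM of *afmid*, inside the 68.6 to 79.0 CPM of its group.

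*kmo* (ENSDARG00000009160, chromosome 13, 42272515 to 42306348, minus strand), which makes 3-hydroxykynurenine and sets the branch towards quinolinic acid, was lower in *fynY531F* larvae than in either control at 3 dpf. The *fynY531F* libraries held 10.1, 9.92, 8.59 and 6.37 CPM, the WT libraries 17.6, 14.0, 16.5 and 13.8 CPM and the *elavl3:Gal4* libraries 14.2, 14.0, 14.6 and 15.5 CPM. Both control groups lay wholly above the *fynY531F* group, by a log2 fold change of -0.84 ± 0.14 SE against WT (adjusted p = 0.000982) and -0.71 ± 0.13 against *elavl3:Gal4* (adjusted p = 0.00267). Both calls held under every alternative tried, single libraries left out included.

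At 5 dpf *kmo* was at 22.4, 13.6, 18.4 and 15.3 CPM in *fynY531F* larvae, at 16.3, 21.2, 22.3 and 27.6 CPM in WT and at 23.2, 28.9, 22.2 and 23.1 CPM in *elavl3:Gal4* larvae. The groups overlapped, and neither difference passed the test (-0.33, adjusted p = 0.186, and -0.48 ± 0.20, adjusted p = 0.218). The latter was -0.53 with adjusted p = 0.0439 without the *elavl3:Gal4* library that stands apart (range 0.0398 to 0.583). The gene rose with age in WT (0.49 ± 0.14, adjusted p = 0.00745), *elavl3:Gal4* (0.75 ± 0.14, adjusted p = 0.00539) and *fynY531F* larvae (0.99 ± 0.18, adjusted p = 0.00114). The *fynY531F* age change was not called different from that of either control.

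*haao* (ENSDARG00000076487, chromosome 13, 8954667 to 8982782, plus strand), one step before quinolinic acid, rose with age in every genotype and was not called between genotypes. WT larvae held 17.7, 14.1, 16.8 and 19.1 CPM at 3 dpf and 26.7, 32.3, 29.4 and 31.2 CPM at 5 dpf (log2 fold change 0.82 ± 0.10 SE, adjusted p = 7.93e-06), and *elavl3:Gal4* larvae 16.5, 15.4, 18.7 and 20.8 CPM and then 28.6, 32.4, 33.5 and 32.1 CPM (0.83 ± 0.14, adjusted p = 0.00331). *fynY531F* larvae held 13.5, 21.6, 14.8 and 10.0 CPM and then 32.4, 22.1, 22.0 and 22.0 CPM (0.72 ± 0.21, adjusted p = 0.0157). In that group 1 library at each age, replicate 2 at 3 dpf and replicate 1 at 5 dpf, lay above the other 3. The differences from the controls were -0.22 and -0.19 at 3 dpf (adjusted p = 0.444 and 0.468) and -0.35 and -0.29 at 5 dpf (adjusted p = 0.291 and 0.129). Without the high library of each age they became -0.44 against *elavl3:Gal4* and -0.41 against WT at 3 dpf (adjusted p = 0.0495 and 0.0448, within 0.0495 to 0.812 and 0.0448 to 0.873), and -0.44 against WT at 5 dpf (adjusted p = 0.00313, within 0.00313 to 0.302). Against *elavl3:Gal4* at 5 dpf the value became -0.53, and no alternative called it (adjusted p 0.108 to 0.711).

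*acmsd* (ENSDARG00000062549, chromosome 9, 23244292 to 23253870, minus strand), the decarboxylase that competes with quinolinic acid formation, was lower in *fynY531F* larvae at both ages. At 3 dpf the *fynY531F* libraries held 5.34, 6.02, 4.96 and 4.38 CPM against 10.2, 7.55, 10.5 and 7.84 CPM in WT (log2 fold change -0.81 ± 0.15 SE, adjusted p = 0.00212) and 7.74, 7.65, 6.56 and 9.38 CPM in *elavl3:Gal4* larvae (-0.57 ± 0.15, adjusted p = 0.0179). At 5 dpf they held 11.6, 9.17, 9.40 and 8.09 CPM against 12.9, 15.9, 14.9 and 15.0 CPM in WT (-0.63 ± 0.12, adjusted p = 0.00378) and 12.7, 16.1, 28.2 and 12 CPM in *elavl3:Gal4* larvae (-0.83 ± 0.29, adjusted p = 0.147). In all of these comparisons every *fynY531F* library lay below every control library.

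The calls of *acmsd* against WT held under every alternative tried. The call against *elavl3:Gal4* at 3 dpf was lost without *elavl3:Gal4* replicate 4 (-0.48, adjusted p = 0.0577) or *fynY531F* replicate 3 or 4 (-0.55 and -0.50, adjusted p = 0.054 and 0.0545), within a range of 0.00966 to 0.108. At 5 dpf a call was gained without the library at 28.2 CPM (-0.52, adjusted p = 0.0363, range 0.00524 to 0.347). With age *acmsd* rose in WT (0.70 ± 0.12, adjusted p = 0.000276), *fynY531F* (0.89 ± 0.15, adjusted p = 0.000655) and *elavl3:Gal4* larvae (1.13 ± 0.29, adjusted p = 0.0202, and 0.82 without the library that stands apart). The last call was lost without replicate 1, 2 or 3 at 3 dpf (1.13, 1.12 and 1.06, adjusted p 0.0599 to 0.0633, within 0.000131 to 0.0801). Kidney proximal tubule markers, from a tissue in which mammalian ACMSD is abundant, summed to 154 to 199 CPM in *fynY531F* larvae at 5 dpf, 299 to 350 in *elavl3:Gal4* and 265 to 310 in WT. Of these markers, 2 of the 6 tested were called lower and 2 higher than in WT (background 14.3% and 14.5%), and 1 of 7 lower than in *elavl3:Gal4* (2.60%). At 3 dpf their sum was 93.8 to 116 CPM in *fynY531F* larvae, 118 to 141 in *elavl3:Gal4* and 104 to 122 in WT, where it overlapped. At that age 2 of 7 were called lower than in each control (background 9.73% against *elavl3:Gal4* and 14.8% against WT). Their part in the *acmsd* difference was not tested.

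*aadat* (ENSDARG00000011410, chromosome 7, 7675685 to 7695955, minus strand), the aminotransferase of the kynurenic acid arm, had its highest 3 dpf level in *elavl3:Gal4* larvae. At 3 dpf the *fynY531F* libraries held 5.80, 6.02, 6.60 and 6.98 CPM, the WT libraries 7.94, 8.89, 7.74 and 7.18 CPM and the *elavl3:Gal4* libraries 10.0, 10.2, 10.2 and 9.99 CPM. The 3 genotypes did not overlap, with the call against *elavl3:Gal4* (log2 fold change -0.64 ± 0.11 SE, adjusted p = 0.00131) and none against WT (-0.32 ± 0.12, adjusted p = 0.0689). At 5 dpf the *fynY531F* libraries held 7.87, 9.74, 9.53 and 7.25 CPM and the WT libraries 7.97, 10.5, 9.32 and 7.02 CPM, and these overlapped (-0.02).

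The 5 dpf *elavl3:Gal4* libraries held 10.0, 9.55, 0 and 8.27 CPM of *aadat*, and the 0 is the library that stands apart. In that library *mfap3l*, which overlaps *aadat* on the same strand, had 3.35 CPM, inside the 3.04 to 4.65 CPM of its group. The rise with age passed the test in *fynY531F* larvae (0.44 ± 0.13, adjusted p = 0.0179, and 0.40 with adjusted p = 0.0515 without replicate 1 at 3 dpf, range 0.0104 to 0.456). The age change was 0.14 in WT (adjusted p = 0.421) and -0.50 in *elavl3:Gal4* larvae (adjusted p = 0.683), or -0.11 without the library at 0. The interaction with WT was not called, and that with *elavl3:Gal4* (0.94, adjusted p = 0.534) was called only without the library at 0 (0.55, adjusted p = 0.0322, range 0.0322 to 0.685).

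The tryptophan hydroxylases showed different patterns. *tph1a* (ENSDARG00000029432, chromosome 25, 8139220 to 8160030, minus strand), a gene of the type that in mammals serves peripheral tissues and the pineal gland, rose in all genotypes, from 0.715, 0.705, 1.5 and 1.17 CPM to 2.37, 2.33, 3.15 and 3.14 CPM in WT (log2 fold change 1.41 ± 0.27 SE, adjusted p = 0.000557). In *elavl3:Gal4* larvae it went from 0.823, 0.388, 0.589 and 0.839 CPM to 3.35, 2.28, 3.71 and 3.28 CPM (2.29 ± 0.32, adjusted p = 0.00131), and in *fynY531F* larvae from 0.677, 0.625, 0.460 and 0.0685 CPM to 3.22, 1.42, 3.11 and 2.09 CPM (2.41 ± 0.45, adjusted p = 0.00119). The ages did not overlap in any genotype. At 3 dpf the gene had too few reads to test between *fynY531F* and the controls, and at 5 dpf it was not called (-0.34, adjusted p = 0.593 against *elavl3:Gal4*).

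*tph2* (ENSDARG00000057239, chromosome 18, 16989764 to 17001056, minus strand), the neuronal hydroxylase of serotonergic neurons, had the smallest change with age of the 10 genes in *fynY531F* larvae. Its libraries there held 1.58, 1.09, 1.38 and 1.85 CPM at 3 dpf and 0.931, 1.65, 2.00 and 0.837 CPM at 5 dpf (log2 fold change -0.10 ± 0.31 SE, adjusted p = 0.801). In WT it stood at 1.79, 1.76, 1.43 and 1.39 CPM and then 2.13, 1.93, 1.92 and 1.64 CPM (0.25, adjusted p = 0.331). *elavl3:Gal4* larvae held 0.988, 1.71, 0.757 and 1.68 CPM and then 2.94, 2.32, 3.95 and 2.65 CPM, with no overlap between ages (1.16 ± 0.32, adjusted p = 0.0271).

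That last call was lost without *elavl3:Gal4* replicate 1 or 3 at 3 dpf or replicate 1 or 4 at 5 dpf (1.06, 0.99, 1.16 and 1.21, adjusted p 0.0519 to 0.0817, within 0.00176 to 0.0991). At 5 dpf all *fynY531F* libraries of *tph2* lay below all *elavl3:Gal4* libraries, a difference that edgeR did not call (-1.09 ± 0.34, adjusted p = 0.112) and DESeq2 did (-1.09, adjusted p = 0.0342, range 0.00659 to 0.278). Of the 10 genes, 4 (*ido1*, *afmid*, *acmsd* and *tph2*) lay lower without overlap in that comparison, beside 10.4% of all genes tested. Against WT at 5 dpf the *fynY531F* libraries of *tph2* overlapped and were not called different (-0.47, adjusted p = 0.25, edgeR). The *elavl3:Gal4* libraries of *tph2* all lay above the WT libraries at that age, also without a call (0.61, adjusted p = 0.84). The summed serotonergic neuron markers were at 83.6 to 87.7 CPM in *fynY531F* larvae at 3 dpf, 96.7 to 111 in *elavl3:Gal4* and 94.8 to 103 in WT, with 1 of 4 and 1 of 5 markers called lower (background 9.73% and 14.8%). At 5 dpf they stood at 84.3 to 93.4 CPM in *fynY531F* larvae and the groups overlapped. Of the 4 markers tested then, 2 were called lower than in WT (background 14.3%) and 0 lower than in *elavl3:Gal4* (2.60%). Their part in the *tph2* values was not tested.

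Several genes that bring tryptophan into cells were lower in *fynY531F* larvae at 5 dpf by larger log2 fold changes than any of the 10 enzymes. They were named for having the largest called changes, and the 10 enzymes were named whatever their change, so this contrast is built in. Over the whole transport list the median log2 fold change at 5 dpf was -0.36 against *elavl3:Gal4* and -0.21 against WT. Over the 10 enzymes it was -0.42 and -0.24. Of 10 tested genes of tryptophan and large neutral amino acid transport, 7 were called higher and 2 lower with age in *fynY531F* larvae (background 27.0% and 25.3%). In WT 8 were called higher and 1 lower (background 29.3% and 28.7%), and in *elavl3:Gal4* larvae 6 and 1 (15.4% and 10.4%). At 5 dpf 3 were called lower in *fynY531F* larvae than in *elavl3:Gal4* (background 2.60%) and 4 lower than in WT (background 14.3%), and none higher. Without the library that stands apart the background against *elavl3:Gal4* was 2219 of 20086 genes called lower. Over all lists of other pathway genes, the number called lower in that comparison was 5 with that library and 12 without it. At 3 dpf 4 of the 10 transport genes were called lower than in *elavl3:Gal4* (background 9.73%) and 6 of 10 lower than in WT (background 14.8%). The neutral amino acid transporter genes *slc6a19a.1*, *slc6a19a.2* and *slc6a19b*, whose mammalian counterpart takes up tryptophan in intestine and kidney, rose with age in *fynY531F* larvae by log2 fold changes of 2.93 ± 0.31, 3.33 ± 0.18 and 3.52 ± 0.21 (adjusted p = 3.06e-05, 6.93e-07 and 9.26e-07, edgeR). *slc7a9*, a light chain of an amino acid exchanger, rose by 2.56 ± 0.21 (adjusted p = 6.73e-06), and *slc6a14* fell by 1.00 (adjusted p = 0.00451).

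*slc6a19a.1* went from 2.05 ± 0.735 CPM (SD, n = 4) at 3 dpf to 69.0 ± 9.88 at 5 dpf in WT, from 2.82 ± 0.209 to 63.5 ± 6.4 in *elavl3:Gal4* and from 2.57 ± 0.883 to 19.5 ± 6.55 in *fynY531F* larvae. At 5 dpf it was lower in *fynY531F* larvae, with log2 fold changes of -1.70 ± 0.26 against *elavl3:Gal4* (adjusted p = 0.0085) and -1.84 against WT (adjusted p = 0.000211). Those of *slc6a19b* were -1.78 ± 0.19 (adjusted p = 0.00191) and -1.41 (adjusted p = 0.000131). *slc6a19a.2* was called against WT (-1.79, adjusted p = 7.77e-06) and not against *elavl3:Gal4*, where the library that stands apart held 31.1 CPM, and the mean of the group was 136 ± 72.1 CPM with it and 171 ± 20.2 CPM without it. *slc6a19a.1* and *slc6a19a.2* are near copies that lie side by side, so reads may be split between them, and their separate values are uncertain.

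*slc3a2a*, the heavy chain shared by several amino acid exchangers, went from 18.6 ± 10.1 to 42.5 ± 3.40 CPM (SD, n = 4) in WT and from 14.3 ± 10.1 to 45.3 ± 7.46 CPM in *elavl3:Gal4* larvae, but from 16.9 ± 3.62 to 10.8 ± 3.50 CPM in *fynY531F* larvae. At 5 dpf it was lower in *fynY531F* larvae, with log2 fold changes of -2.05 ± 0.25 against *elavl3:Gal4* (adjusted p = 0.00347) and -1.97 against WT (adjusted p = 4.71e-05). For *slc6a19a.1*, *slc6a19a.2*, *slc6a19b* and *slc3a2a*, every *fynY531F* library at 5 dpf lay below every control library, with the exception of *slc6a19a.2* against the library that stands apart. The intestine markers given above moved in the same libraries, and their part was not tested. Of these, 5 of 6 were called lower than in *elavl3:Gal4* (background 2.60%) and than in WT (14.3%), with sums of 359 to 528 CPM against 938 to 1394 CPM in the controls.

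**Figure D4:**
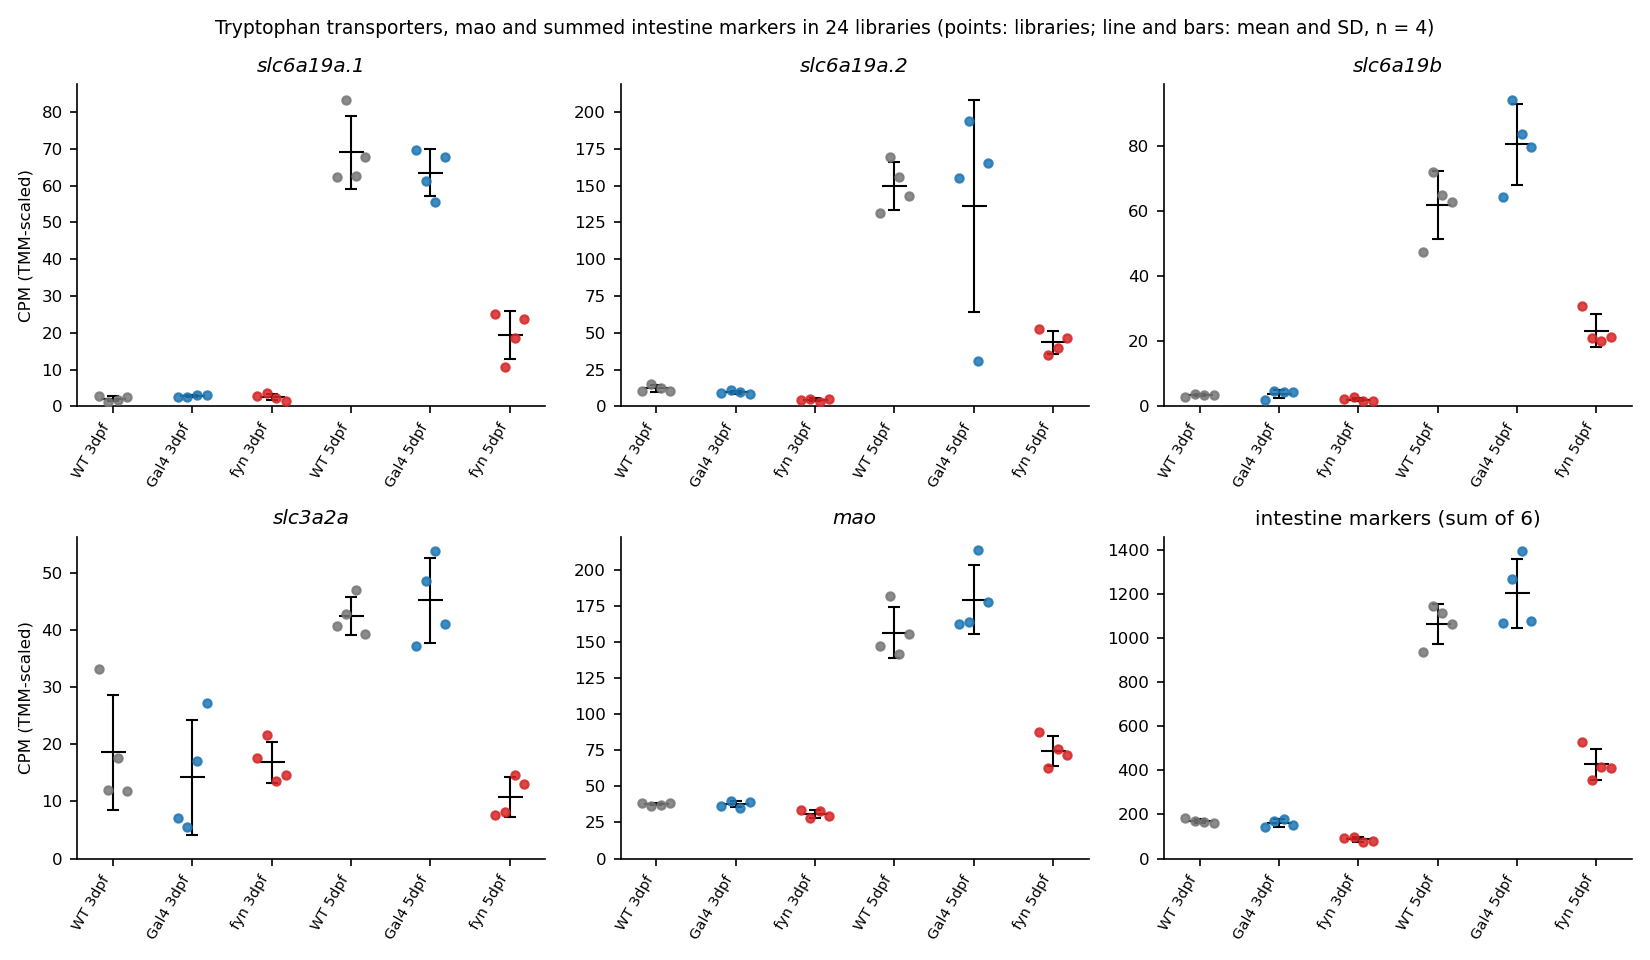
Levels of *slc6a19a.1*, *slc6a19a.2*, *slc6a19b*, *slc3a2a*, *mao* and the sum of 6 intestine markers in each of 24 libraries, in CPM after TMM scaling on linear axes that start at 0 (points are libraries, lines and bars the mean and SD of 4). At 5 dpf the *fynY531F* libraries lie below both controls in each panel, except that 1 *elavl3:Gal4* library of *slc6a19a.2* is at 31.1 CPM.

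On the serotonin side, 4 of 9 tested genes of serotonin and melatonin metabolism were called higher with age in *fynY531F* larvae and 1 lower (background 27.0% higher and 25.3% lower). WT had 5 of 10 called higher and 4 lower (background 29.3% and 28.7%), and *elavl3:Gal4* larvae 4 of 10 and 0 (15.4% and 10.4%). *ddc*, the decarboxylase that completes serotonin and dopamine synthesis, rose with age by 2.01 ± 0.20 in *fynY531F* larvae (adjusted p = 2.48e-05, edgeR). This is a change with age and not a difference from the controls. The interactions did not call it different from the age change of either control. At 5 dpf 1 of 9 was called lower than in *elavl3:Gal4* (background 2.60%): *mao*, the monoamine oxidase that degrades serotonin, stood at 74.5 ± 10.5 CPM (SD, n = 4) in *fynY531F*, 179 ± 24 in *elavl3:Gal4* and 157 ± 17.8 in WT larvae (-1.26 ± 0.15, adjusted p = 0.00317). Against WT at 5 dpf, 5 of 9 genes were called lower and 1 higher, *asmtl* (1.14, adjusted p = 0.000732), beside a background of 14.3% lower and 14.5% higher.

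Of 5 further kynurenine enzymes, 2 were called lower in *fynY531F* larvae than in each control at 3 dpf (background 9.73% against *elavl3:Gal4* and 14.8% against WT) and 1 lower than in each at 5 dpf (2.60% and 14.3%). *got2a*, a mitochondrial aspartate aminotransferase, was the latter (-1.28 ± 0.29, adjusted p = 0.0443 against *elavl3:Gal4* and -2.04, adjusted p = 0.000573 against WT). The call against *elavl3:Gal4* was lost without *elavl3:Gal4* replicate 1, 2 or 4 or any *fynY531F* replicate (log2 fold changes -1.21 to -1.42, adjusted p up to 0.139, from 0.00152). Without the library that stands apart the log2 fold change was -0.94. That library held 22.4 CPM of *got2a* and the rest of its group 9.83 to 11.4 CPM. In WT at 5 dpf replicate 4 held 9.79 CPM and the rest 26.1 to 27.8 CPM. In the glutarate branch 3 of 8 genes were called higher and 2 lower with age in *fynY531F* larvae, near the background of 27.0% and 25.3%, *acat2* among the latter (-0.74, adjusted p = 2.57e-05). WT had 4 called higher and 3 lower (background 29.3% and 28.7%), and *elavl3:Gal4* larvae 3 and 0 (15.4% and 10.4%). In *fynY531F* larvae at 5 dpf 4 of 8 were called lower than in WT and 1 higher, *gcdha* (0.83, adjusted p = 0.000229), beside 14.3% and 14.5%. With all 6 groups in one fit the adjusted p of *gcdha* was 0.0548, the highest of a range from 1.89e-09.

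In NAD synthesis 4 of 8 genes were called lower with age in *fynY531F* larvae, including *namptb* of the salvage route (-0.75, adjusted p = 0.000147), beside a background of 25.3%. With age 3 of 8 were called lower in WT (background 28.7%), and 0 lower and 1 higher in *elavl3:Gal4* larvae (10.4% and 15.4%). At 5 dpf 1 of 8 was called lower in *fynY531F* larvae than in WT, near the background of 14.3%. Of 8 genes of the aryl hydrocarbon receptor, a receptor for kynurenine and other tryptophan products, 3 were called higher and 1 lower with age in *fynY531F* larvae, *ahr1b* (-1.07, adjusted p = 0.000141), beside a background of 27.0% and 25.3%. WT had 4 of 9 called higher and 3 lower (background 29.3% and 28.7%), and *elavl3:Gal4* larvae 0 of 9 in either direction (15.4% and 10.4%). Both tryptophan tRNA synthetase genes in the tables were called lower with age in *fynY531F* larvae (background 25.3%), *wars2* with a log2 fold change of -0.77 (adjusted p = 0.00479). In WT 2 of 2 were called lower with age (background 28.7%) and in *elavl3:Gal4* larvae 0 of 2 (10.4%). Over all lists of other pathway genes, *elavl3:Gal4* larvae had 1 gene called lower with age. Without the library that stands apart they had 18 (background 29.4%).

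Across the 24 libraries *kmo* and *acmsd* followed each other most closely among the 9 genes with enough counts, *tph1a* being left out, with a Pearson r of 0.879 on log2 CPM, and 0.936 without the library that stands apart. *kmo* with *haao* gave 0.861, *haao* with *acmsd* 0.856 and *afmid* with *acmsd* 0.856. *aadat* ran from -0.674 to -0.0469 with the others, and from 0.228 to 0.507 without that library, so its negative values rested on it. These points share libraries, depth and the step between ages, and the correlations are descriptions.

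Among 18401 genes with at least 10 counts in 20 libraries, those most like *tdo2b* by Pearson r on log2 CPM were *gldc* (0.977), *cdab* (0.976) and *lgmn* (0.975). Those most like *kmo* were *A2ML1 (1 of many)* (0.956), *si:ch73-206d17.1* (0.922) and *dpys* (0.922), and those most like *acmsd* *zgc:91968* (0.964), *acta2* (0.960) and *pik3ip1* (0.958). *haao* was nearest to *gcnt7* (0.940), *sec14l7* (0.940) and *zgc:172253* (0.939), and *tdo2a* to *mybpc2a* (0.919), *myhz1.1* (0.915) and *FO904970.1* (0.914). *ido1* was nearest to *oxr1b* (0.916), *opn1mw1* (0.913) and *si:ch211-22d5.2* (0.901), and *tph2* to *stc1l* (0.831), *ftr67* (0.806) and *cyp51* (0.779). For *afmid* the nearest were *si:ch211-160e1.5* (0.964), *amdhd2* (0.962) and *bloc1s6* (0.952), and for *aadat* *edar* (0.988), *ppargc1a* (0.986) and *larp1b* (0.986). Without the library that stands apart the 3 genes named for *aadat* were at 0.754, 0.600 and 0.682, with ranks 3, 165 and 34. Those named for *afmid* were at 0.923, 0.920 and 0.898, with ranks 19, 27 and 187. *tph1a* had too few counts for this description.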

How the data were processed

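Whole larvae were sequenced as poly(A) RNA with paired reads. Per the labels and the submitters' processing notes, reads were processed with HISAT2 2.0.5, StringTie 1.3.3b and featureCounts 1.5.0-p3 on GRCz11. No source used here says whether counting used strand. The deposited tables hold raw read counts per Ensembl gene made by the authors, with gene length in bases and gene positions. Counts were read from 9 tables, in which each library appears several times; 1205864 repeated entries were compared and 0 differed, and 13752 entries absent from a table were set to 0. The authors' fold changes, p-values and normalized columns (144 columns of per-sample values) and 27 tables of selected genes were not used.

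Libraries were grouped by their labels, 4 to a group; each is a separate pool of larvae. Genes were filtered with filterByExpr, scaled by TMM and tested with edgeR 4.0.16 (quasi-likelihood, the 2 groups of each comparison, or 4 groups for an interaction), with Benjamini-Hochberg adjustment over all genes tested; limma 3.58.1, DESeq2 1.42.0, R 4.3.3, Python 3.11.15, numpy 2.4.6, pandas 2.3.3, scipy 1.17.1 and matplotlib 3.10.9 were also used, and the code was tested on simulated data. CPM are TMM-scaled, and gene lengths are those in the tables. Precision follows depth, 11386498 to 30549128 counts per library.

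The 10 genes and all lists were chosen with earlier results of these data known. Outside the 10, up to 5 called genes per direction with the largest change and a mean log2 CPM of at least 1 were named for *fynY531F* 5 against 3 dpf and *fynY531F* against each control at 5 dpf, and the 3 genes most like each of the 10; *kynu*, *cyp1a* and *aanat1* were named after their values were seen. Lists matched 11 of 11 transport, 5 of 10 kynurenine, 8 of 9 glutarate, 8 of 10 NAD, 11 of 13 serotonin and melatonin, 11 of 12 aryl hydrocarbon receptor and 2 of 3 tRNA synthetase symbols. Alternatives were library totals alone, DESeq2, no filter, a filter of 10 counts in every library, all 6 groups in one fit, a replicate block and each library left out.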

Additional observations from a re-analysis of the deposited data

Results flagged for a closer look

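In 17 of 168 groups checked, and 5 of the 60 groups of the 10 genes, the highest or lowest of 4 libraries lay far from the rest by Dixon's criterion, which chance flags in about 1 in 20 groups. In *fynY531F* larvae at 5 dpf this was replicate 1 each time: *tdo2b* at 34.3 CPM (others 11.7 to 13.7), *haao* at 32.4 (22.0 to 22.1), *slc6a19b* at 30.7 (20.1 to 21.3), *slc7a9* at 10.9 (7.04 to 7.25) and *cyp1a* at 49.8 CPM (20.6 to 24.9). In *elavl3:Gal4* larvae at 5 dpf, replicate 3, the library that stands apart over all genes, was high for *afmid* at 18.2 (5.16 to 5.85), *wars2* at 9.44 (3.04 to 3.35), *acat2* at 54.6 (26.8 to 29.3), *got2a* at 22.4 (9.83 to 11.4) and *gcdha* at 36.9 CPM (9.08 to 12.7), and low for *ahr1b* at 1.79 (16.7 to 19.2) and *namptb* at 6.70 CPM (20.2 to 22.2). In the same group *ido1* stood at 8.33 CPM in replicate 1 (5.16 to 5.62) and *kmo* at 28.9 CPM in replicate 2 (22.2 to 23.2). At 3 dpf *elavl3:Gal4* replicate 1 was low for *slc6a19b* at 1.89 CPM (4.27 to 4.68) and replicate 3 high for *wars2* at 7.40 CPM (5.19 to 5.55), and WT replicate 4 at 5 dpf was low for *got2a* at 9.79 CPM (26.1 to 27.8).

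The change from 3 to 5 dpf differed between genotypes for 1 of the 10 enzymes and for several pathway genes, by the interaction term (edgeR). Over all genes 2380 of 20340 were called in the interaction with WT and 844 of 20358 in that with *elavl3:Gal4*. Against WT, the interaction was positive for *tdo2a* at 2.21 on the log2 scale (adjusted p = 0.0258), for *cyp1a* at 2.22 (adjusted p = 0.000113), for *asmtl* at 1.16 and for *gcdha* at 0.86. It was negative for *slc6a19a.1* (-2.15, adjusted p = 0.003), *slc3a2a* (-1.82, adjusted p = 0.00488), *got2a* (-1.99, adjusted p = 0.00154), *mao* (-0.80, adjusted p = 0.000895), *aanat1* (-1.62, adjusted p = 0.00249) and *ahr1b* (-0.68, adjusted p = 0.0145). The sign gives the direction of the difference and not which age change was larger. *ahr1b*, for example, fell with age in *fynY531F* larvae (log2 fold change -1.07). Against *elavl3:Gal4*, the age change differed for *slc6a19a.1* (-1.57, adjusted p = 0.0242), *slc3a2a* (-2.32, adjusted p = 0.0302), *mao* (-0.996, adjusted p = 0.00366) and *aanat1* (-2.50, adjusted p = 0.00752). Of these, *slc6a19a.1* and *slc3a2a* against *elavl3:Gal4* lost their calls when some single libraries were left out or library totals alone were used (adjusted p up to 0.0818 and 0.0694 over the alternatives). With all 6 groups in one fit, the calls against WT of *ahr1b*, *gcdha* and *slc3a2a* were lost (adjusted p = 0.641, 0.318 and 0.0579).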

How the results depend on the processing

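Of the counts of called genes among the 10, 6 moved by more than 1.5 times under another setting. The *elavl3:Gal4* age count was 5 rather than 8 with at least 10 counts in every library, the *fynY531F* count below *elavl3:Gal4* at 3 dpf was 2 rather than 4 with all 6 groups in one fit, that at 5 dpf was 1 by DESeq2 and 5 in the one fit rather than 0, and the interaction with WT gave 0 rather than 1 with at least 10 counts. The replicate numbers showed no consistent pairing of the libraries (36 pairs, correlation -0.209 to 0.186, 6 pairs over 0.1 and no comparison with every pair over it). In 8 of the 36 the best correlated library of the other group had the same number. With the replicate block the counts were 8, 5 and 9 for age in WT, *elavl3:Gal4* and *fynY531F* larvae, 3 and 0 for *fynY531F* below *elavl3:Gal4* at 3 and 5 dpf, 4 and 2 below WT, and 0 and 1 in the interactions with *elavl3:Gal4* and WT. With single libraries left out the range was 5 to 9 for *elavl3:Gal4* age, 2 to 5 and 0 to 3 for *fynY531F* below *elavl3:Gal4* at 3 and 5 dpf, and 0 to 1 and 0 to 2 in the interactions. Without *elavl3:Gal4* replicate 3 at 5 dpf the genes called over all genes against *fynY531F* rose from 909 to 4562, beside 2456 by DESeq2, 5025 in the one fit and 178 with the block.

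Other counts over all genes moved too: in the one fit 7560 rather than 11352 for WT age, 9429 rather than 5029 for *elavl3:Gal4* age, 1317 rather than 3572 for *fynY531F* against *elavl3:Gal4* and 1897 rather than 5325 against WT at 3 dpf, 3449 rather than 5700 against WT at 5 dpf, and 1826 and 874 rather than 844 and 2380 in the interactions with *elavl3:Gal4* and WT (1758 by DESeq2 for the former). *elavl3:Gal4* against WT gave 923 at 3 dpf, 1451 by DESeq2, 393 with the block and 55 to 1521 with single libraries left out, and 10 at 5 dpf, 134 by DESeq2, 92 in the one fit, 22 with at least 10 counts, 0 with library totals or the block and 0 to 389 with single libraries left out. Library totals alone shifted the median of all genes by -0.15, -0.21 and -0.10 for WT, *elavl3:Gal4* and *fynY531F* age, by 0.14 for *fynY531F* against *elavl3:Gal4* and by -0.11 for *elavl3:Gal4* against WT at 5 dpf. With them 6 changes that were never called turned sign: *aadat* to -0.015 for WT age and 0.0074 for *fynY531F* against WT at 5 dpf, *haao* to -0.012 and -0.053 for *elavl3:Gal4* against WT at 3 and 5 dpf and 0.0072 for the interaction with *elavl3:Gal4*, and *tdo2a* to -0.021 for *elavl3:Gal4* against WT at 5 dpf. Library totals also ended the calls of *ido1* with WT age (0.35, adjusted p = 0.108), *kmo* and *tph2* with *elavl3:Gal4* age (0.55 and 0.93, adjusted p = 0.109 and 0.0535) and *aadat* with *fynY531F* age (0.33, adjusted p = 0.055). The one fit ended those of *acmsd* and *aadat* against *elavl3:Gal4* at 3 dpf (adjusted p = 0.108 and 0.486), *ido1* and *afmid* with WT age (0.204 and 0.0602), *afmid* and *aadat* with *fynY531F* age (0.0756 and 0.456), *gcdha* against WT at 5 dpf (0.0548) and the interactions with WT of *ahr1b*, *gcdha* and *slc3a2a* (0.641, 0.318 and 0.0579). The cause was not tested.

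With single libraries left out, uncalled values crossed 0 as follows: *tph2* with *fynY531F* age -0.33 to 0.074; *fynY531F* against *elavl3:Gal4* *afmid* at 3 dpf -0.20 to 0.057, *tdo2b* at 5 dpf -0.83 to 0.077 and *aadat* -0.11 to 0.50; against WT at 5 dpf *aadat* -0.11 to 0.086 and *tph1a* -0.33 to 0.029. *elavl3:Gal4* against WT gave *afmid* -0.20 to 0.060 and *haao* -0.045 to 0.12 at 3 dpf, and at 5 dpf *tdo2a* -0.025 to 0.38, *ido1* -0.25 to 0.012, *acmsd* -0.11 to 0.34 and *aadat* -0.52 to 0.085. The interactions with *elavl3:Gal4* gave *tdo2b* -0.73 to 0.15, *haao* -0.26 to 0.12, *acmsd* -0.39 to 0.074 and *tph1a* -0.24 to 0.37, and those with WT *afmid* -0.15 to 0.034 and *haao* -0.27 to 0.12. The lowest counts, 1 to 23 per library for *tdo2b* and *tph1a* at 3 dpf, limit what these libraries can show for both genes.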

Other observations

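Kynureninase and *cyp1a*, a target of the aryl hydrocarbon receptor, were also lower in *fynY531F* larvae at 3 dpf. *kynu*, which cleaves 3-hydroxykynurenine between the steps of *kmo* and *haao*, had a mean of 9.10 ± 0.722 CPM (SD, n = 4) in *fynY531F*, 13 ± 1.32 in *elavl3:Gal4* and 13.6 ± 0.751 in WT larvae, with every *fynY531F* library below every control library (log2 fold change -0.48, adjusted p = 0.00958 against *elavl3:Gal4* and -0.58, adjusted p = 0.000931 against WT, edgeR). At 5 dpf it stood at 18 ± 3.28, 26.4 ± 4.73 and 19.7 ± 2.61 CPM, and neither difference was called (-0.54, adjusted p = 0.148, and -0.14, adjusted p = 0.484). *cyp1a*, the monooxygenase gene commonly read as a sign of aryl hydrocarbon receptor activity, was at 14.2 to 21.6 CPM in *fynY531F* larvae at 3 dpf, 56.3 to 77.6 CPM in *elavl3:Gal4* and 78.4 to 94.4 CPM in WT (-1.89, adjusted p = 1.83e-06, and -2.24, adjusted p = 8.23e-08). At 5 dpf the ranges were 20.6 to 49.8, 32.1 to 66.0 and 27.1 to 30.1 CPM, where 3 of the 4 *fynY531F* libraries lay at 20.6 to 24.9 CPM, below both controls, and replicate 1 at 49.8 CPM. Over the whole receptor list at 3 dpf, 2 of 8 genes were called lower and 0 higher than in *elavl3:Gal4* (background 9.73% and 8.88%). Against WT 4 of 9 were called lower and 1 higher (14.8% and 12.7%). The list medians were -0.15 and -0.24, with 3 genes above 0 in each comparison.

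*aanat1*, an acetyltransferase of the melatonin route, ran the other way at 3 dpf, higher in *fynY531F* larvae by 1.77 against *elavl3:Gal4* (adjusted p = 7.92e-05) and 1.58 against WT (adjusted p = 0.000293, edgeR). It rose with age by 2.34 in *elavl3:Gal4* and 1.45 in WT larvae and changed by -0.17 in *fynY531F* larvae (adjusted p = 0.481). The interaction with *elavl3:Gal4* was -2.50, and -2.03 without the library that stands apart. The summed pineal markers at 3 dpf overlapped, at 72.2 to 97.2 CPM in *fynY531F*, 74.8 to 97.1 in *elavl3:Gal4* and 83.5 to 109 in WT larvae. At 5 dpf they were at 28.5 to 38.3 CPM in *fynY531F*, 38.5 to 68.9 in *elavl3:Gal4* and 54.0 to 61.2 in WT larvae, and their part was not tested. These 3 genes were singled out after their values were seen.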
